A study of Rattus norvegicus with 23 samples.

Results

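The acute phase plasma protein genes described here are 10 of the 14217 genes measured in rat liver cell cultures. They were chosen by name, with earlier results of these data known. Lcn2, Orm1, Hp and A2m stand for the positive reactants, whose products rise in plasma during inflammation, and Alb and Ttr stand for the negative reactants, whose products fall. Hpx, Cp, Serpina1 and Crp complete the list. Each of the 10 has a probe set that names no other gene, and where a gene had several, the brightest by its average across the 23 arrays was selected. This use of measured values bore on Alb, with 2 such probe sets, and Cp, with 3, and it used no difference between groups.

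Hepatocytes make most plasma proteins and change their mix when cytokines reach them. IL-6 and its relatives act through receptors that share gp130 and through the transcription factor STAT3, IL-1 and TNF act through NF-κB, and C/EBP factors and the glucocorticoid receptor act on many of the same genes. Kupffer cells (KCs), the macrophages of the liver, are a known source of these cytokines, and A2m is the classic strong acute phase protein of the rat, while Crp is made constitutively in that species.

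The study asked how hepatocytes, liver sinusoidal endothelial cells (LSECs, the fenestrated lining of the liver sinusoids) and KCs behave in layered 3D liver models. RNA was measured on 23 Affymetrix rat arrays in 8 groups. Hepatocytes came from the 3DHLK model (hepatocytes, LSECs and KCs), the 3DHL model (hepatocytes and LSECs), the collagen sandwich (CS) and the hepatocyte monolayer (HM), LSECs came from the 3DHLK and 3DHL models, and KCs came from the 3DHLK model and from monolayers. The KCs of the 3DHLK model had 2 arrays and every other group had 3. All cultures were sampled at day 12, apart from the KC monolayers at day 3. Hepatocytes and LSECs were isolated from female Lewis rats, whereas the KCs were a purchased cryopreserved stock, kept as monolayers in a medium with serum before they joined the 3D models in hepatocyte medium. KC monolayers therefore differed from the KCs of the 3DHLK model in day and medium as well as in neighbours. In the 3D models a detachable film of chitosan and hyaluronic acid lay between the hepatocytes and the other cells, and the cell types were separated with magnetic beads against SE-1 for LSECs and CD163 for KCs, with the hepatocytes left after both. Whether the replicates were separate animals or isolations is not in the labels, so a p-value here reflects only how far these arrays scattered, and that scatter may be technical. Cell types of a 3D model may come from the same culture, and the labels do not say which arrays share one. The fits here treated the arrays as independent.

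Values are the deposited log2 RMA values, on which a difference of 1 is a doubling. Group names follow the labels, but the defining markers of LSECs and KCs did not all follow them. In 3DHLK LSECs the mean of 13 endothelial markers was 6.36, against 6.71 in 3DHLK hepatocytes, while the mean of 16 hepatocyte markers was 12.43, against 11.87. Singly, 5 of the 13 endothelial markers were called higher in those LSECs (limma, adjusted p under 0.05), led by Vwf. A further 4 were called lower, led by Tek, and the median log2 difference was 0.05. Of all genes, 34.7% were called higher and 25.7% lower. In the 3DHL model the endothelial mean was 6.14 in LSECs and 6.13 in hepatocytes. In 3DHLK KCs the mean of 13 macrophage markers was 6.80, against 11.91 in KC monolayers, the mean of the hepatocyte markers was 11.36, against 7.06, and Cd163, the antigen of the KC beads, averaged 7.15 against 10.63. Against 3DHLK hepatocytes, 3 of the 13 macrophage markers were called higher in 3DHLK KCs, led by Clec4f, and 7 lower, led by Lyz2. Of all genes, 30.6% were called higher and 25.9% lower there. Hepatocyte markers were thus bright on the arrays labelled LSEC and 3DHLK KC, and the markers these cells are named for were dim on average. In such bulk samples, fewer cells of a type and less RNA per cell cannot be told apart. From the clustering of its samples, the paper stated that cell separation brought no contamination. Whether hepatocyte RNA was carried into the bead fractions was not tested here. Array medians lay between 7.41 and 7.53, and no detection calls or intensities before normalization were used here.

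Promoter sequences are shown first for the genes that carried a match to the C/EBP motif, Orm1, Cp and Lcn2, and for Alb as the main negative reactant. They run from 250 bases before to 50 bases after the start site in RefSeq (build GRCr8), 5′ to 3′ on the gene's strand, and 8 of the 10 genes matched an entry, Hp and A2m did not. Capitals mark every match, on either strand, to 6 motifs: C/EBP (TTGNNCAA), NF-κB (GGGANNNNCC), STAT (TTCNNNGAA), the IL-6 response core (CTGGGA), the glucocorticoid receptor (GNACANNNTGTNC) and part of the HNF1 site (GTTAAT).
Orm1, chr5:81788259-81788558, plus strand: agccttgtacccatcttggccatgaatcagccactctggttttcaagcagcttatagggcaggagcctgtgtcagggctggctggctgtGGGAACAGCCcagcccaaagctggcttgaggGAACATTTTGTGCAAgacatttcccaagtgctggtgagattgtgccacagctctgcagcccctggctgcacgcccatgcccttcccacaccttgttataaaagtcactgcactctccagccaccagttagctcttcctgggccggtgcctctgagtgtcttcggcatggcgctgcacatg
Cp, chr2:104368420-104368719, plus strand: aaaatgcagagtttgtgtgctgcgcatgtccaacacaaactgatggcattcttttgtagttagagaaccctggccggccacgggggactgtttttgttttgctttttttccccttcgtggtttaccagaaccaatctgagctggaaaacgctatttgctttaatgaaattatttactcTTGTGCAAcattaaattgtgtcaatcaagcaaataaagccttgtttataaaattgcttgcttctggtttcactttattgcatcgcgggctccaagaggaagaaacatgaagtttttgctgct
Lcn2, chr3:36081731-36082030, minus strand: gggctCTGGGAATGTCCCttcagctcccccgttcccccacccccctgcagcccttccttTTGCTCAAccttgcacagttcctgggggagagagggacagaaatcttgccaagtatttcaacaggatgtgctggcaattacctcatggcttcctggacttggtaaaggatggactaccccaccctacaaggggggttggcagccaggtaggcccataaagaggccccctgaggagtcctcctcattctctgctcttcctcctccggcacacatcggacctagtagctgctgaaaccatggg
Alb, chr14:17906930-17907229, minus strand: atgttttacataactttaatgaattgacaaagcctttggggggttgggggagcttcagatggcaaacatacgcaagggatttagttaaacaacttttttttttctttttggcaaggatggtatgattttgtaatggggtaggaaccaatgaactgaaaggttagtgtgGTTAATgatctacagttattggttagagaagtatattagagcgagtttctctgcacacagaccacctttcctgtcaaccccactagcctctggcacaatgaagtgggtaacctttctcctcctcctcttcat

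The C/EBP motif lay at −123 to −116 from the start site of Orm1 and at −72 to −65 from that of Cp, with the letters TTGTGCAA in both, and at −191 to −184 from that of Lcn2 as TTGCTCAA. It occurred in 3 of the 8 member promoters, and in 5.98% of the 33469 promoters of the same length. The glucocorticoid receptor motif, present in 0.439% of all promoters, lay at −130 to −118 in Orm1 and shared bases with the C/EBP match there. The NF-κB motif, in 19.3% of all promoters, matched Orm1 at −161 to −152, Ttr, and Lcn2 at −243 to −234, where a second match on the other strand and an IL-6 response core at −245 to −240 shared bases with it. The IL-6 response core, in 30.3% of all promoters, was also in Crp and Ttr. The part of the HNF1 site, in 7.45% of all promoters, lay at −82 to −77 in Alb. The STAT motif, in 8.87% of all promoters, had no match in the 8 windows. A match is a description of these letters and not of binding.

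Addition of KCs to the 3D model went with higher A2m and Cp in hepatocytes. A2m, a protease inhibitor of plasma, measured 14.01, 13.84 and 13.80 in 3DHLK hepatocytes, against 12.37, 12.21 and 12.17 in 3DHL hepatocytes. The 3 values of the 3DHLK model lay above all others, with a gap far wider than the spread within either group. A2m was 3.11-fold higher (log2 difference 1.64 ± 0.20, SE, adjusted p = 4.53e-06, limma). Cp, the copper-carrying ferroxidase ceruloplasmin, measured 12.29, 12.20 and 11.96 in 3DHLK hepatocytes, against 11.26, 10.81 and 11.40 in 3DHL hepatocytes. Its groups also did not overlap, and Cp was 1.99-fold higher (log2 difference 0.99 ± 0.18, SE, adjusted p = 5.25e-04). Both other probe sets of Cp rose as well, by 0.96 (adjusted p = 1.08e-03) and by 1.70 (adjusted p = 4.59e-07) on the log2 scale.

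These were the 2 of 10 members called higher, where 7.72% of all genes were called higher, and 0 members were called lower, where 3.76% of all genes were. At an unadjusted p under 0.05 the counts were 4 higher and 0 lower. The other positive reactants of the list showed smaller differences that did not pass the test. Arrays did not overlap in 5 of 10 members, where they did not in 36.5% of all genes. Lcn2, the siderophore-binding lipocalin, measured 12.98, 13.26 and 12.97 in 3DHLK hepatocytes and 12.83, 12.80 and 12.68 in 3DHL hepatocytes, without overlap (log2 difference 0.30 ± 0.14, SE, adjusted p = 0.187). Hp, which binds free hemoglobin, measured 13.90, 13.88 and 13.58 in 3DHLK hepatocytes and 13.51, 13.21 and 13.40 in 3DHL hepatocytes, again without overlap (0.41 ± 0.16, SE, adjusted p = 0.106). Without the KC monolayers, whose replicates spread most in all 10 genes, both were called (adjusted p = 0.0193 for Lcn2 and 0.00409 for Hp), and so was Ttr as lower (log2 difference −0.28, adjusted p = 0.0454). That fit called more of all 14217 genes as well, 1482 higher and 1553 lower.

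Ttr, the carrier of thyroxine and of retinol-binding protein, measured 13.44, 13.88 and 13.78 in 3DHLK hepatocytes and 14.09, 13.90 and 13.94 in 3DHL hepatocytes, so the 3DHLK values all lay lower by a narrow margin (−0.28 ± 0.17, SE, adjusted p = 0.334). Orm1, the plasma glycoprotein orosomucoid, averaged 14.53 ± 0.06 in 3DHLK hepatocytes and 14.50 ± 0.03 in 3DHL hepatocytes, and Alb averaged 14.57 ± 0.08 and 14.49 ± 0.03 in the same order (SD, n = 3 each). Alb and Orm1 lie close to the top of the scale, within 0.34 and 0.56 of the brightest probe set of the array on each of the 20 arrays other than KC monolayers. Differences between such bright probe sets can be compressed, so equal values do not show equal RNA levels. Hpx, the heme scavenger hemopexin, Serpina1, the protease inhibitor antitrypsin, and Crp differed by 0.12, −0.09 and 0.04 between the same groups, with adjusted p of 0.806, 0.844 and 0.924.

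**Figure D1:**
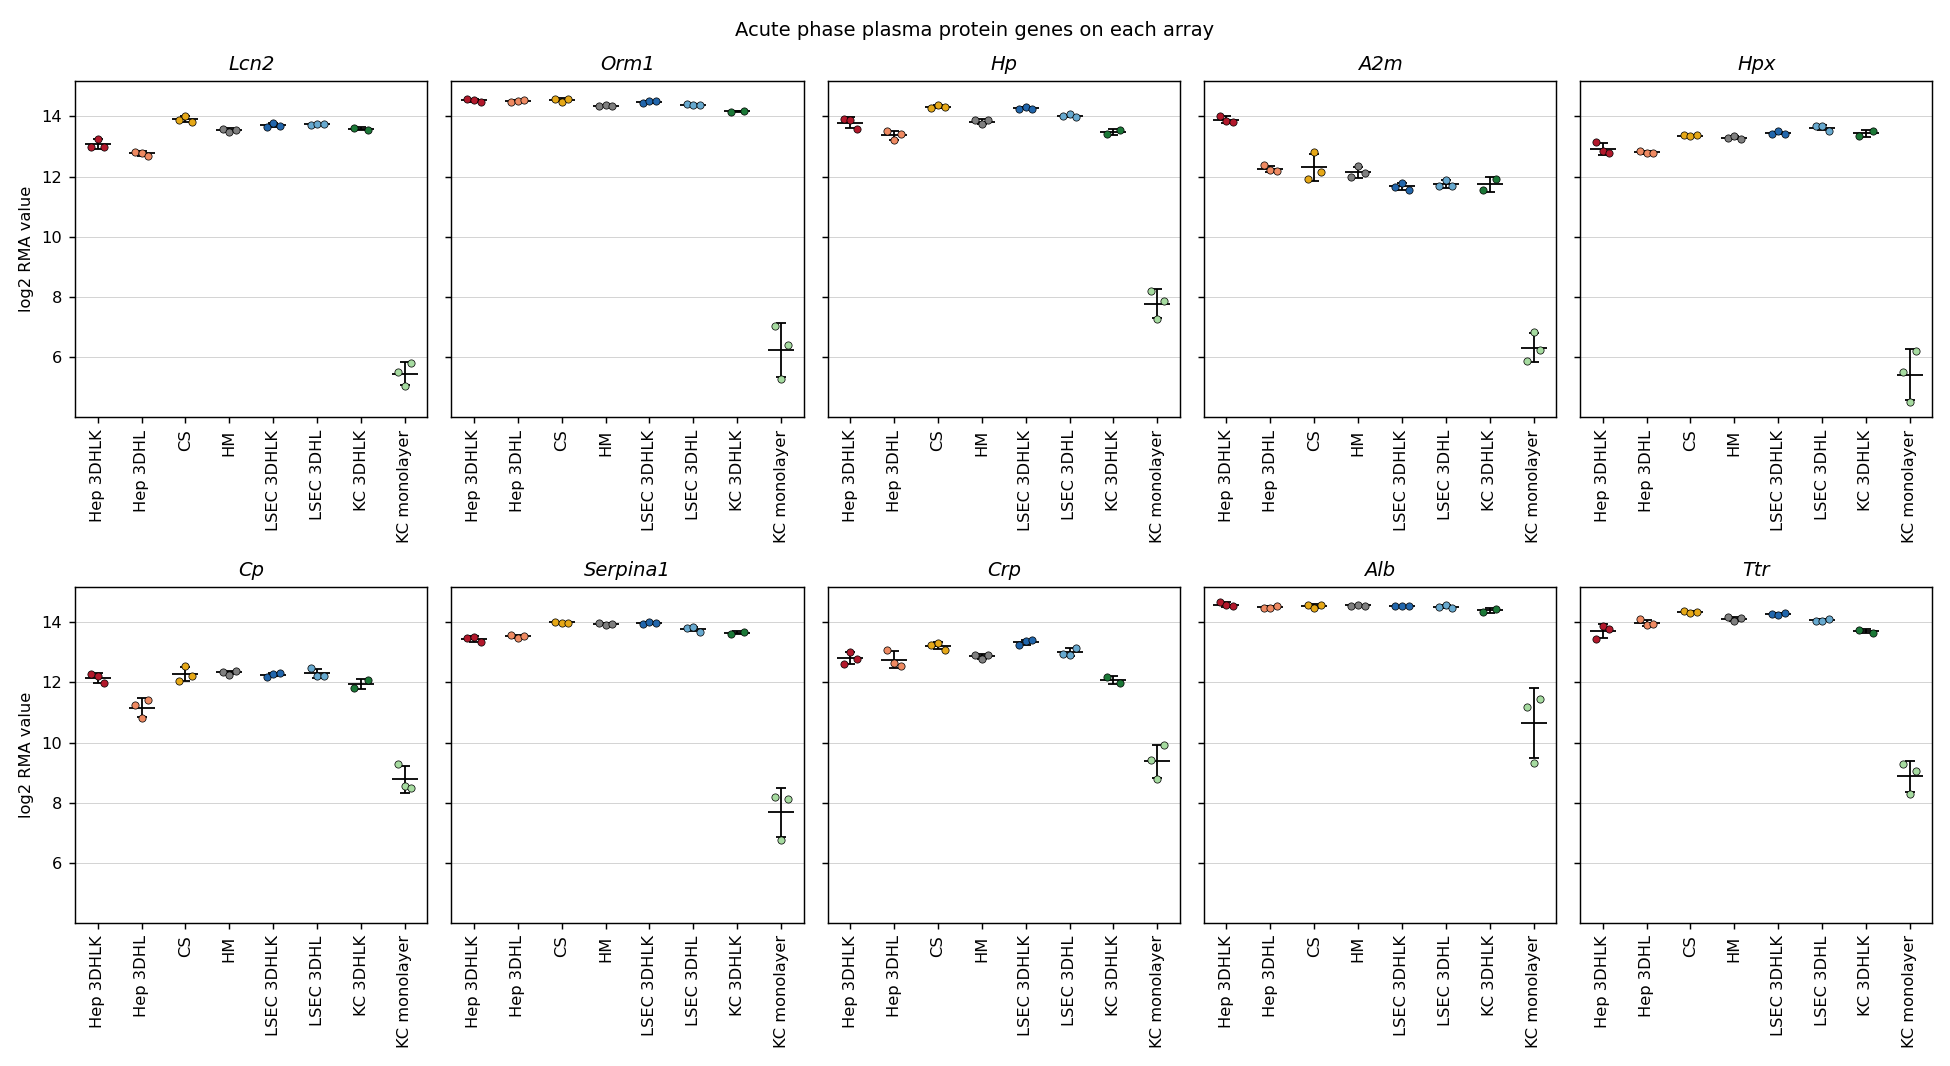
Log2 RMA value (vertical axis) of the 10 genes on each of the 23 arrays, 1 panel per gene, in 8 groups along the horizontal axis. Points are arrays, wide bars are group means and error bars are SD (n = 3, or 2 for KC 3DHLK). A2m stands highest in 3DHLK hepatocytes (mean 13.88) the plotted probe set of Cp is lower in 3DHL hepatocytes (11.16) than in the 6 groups other than KC monolayers, unlike another of its probe sets, and all 10 genes are lowest in KC monolayers.

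In LSECs no member passed the test between the 3D models. A2m measured 11.66, 11.80 and 11.56 in 3DHLK LSECs, against 11.70, 11.90 and 11.67 in 3DHL LSECs, with overlapping values (log2 difference −0.08 ± 0.20, SE, adjusted p = 0.882). Cp measured 12.19, 12.27 and 12.29 in 3DHLK LSECs, against 12.46, 12.20 and 12.22 in 3DHL LSECs (−0.05 ± 0.18, SE, adjusted p = 0.931). With limma, 0 of 10 members were called higher and 0 lower, where 3.58% and 3.89% of all genes were, and 0 passed an unadjusted p under 0.05 in either direction. The largest differences were 0.33 for Crp (adjusted p = 0.375), 0.25 for Hp (adjusted p = 0.416) and 0.21 for Ttr (adjusted p = 0.548). Arrays did not overlap in 6 of 10 members, where they did not in 37.3% of all genes. In a fit to these 6 arrays alone, Crp was the 1 of 10 members called higher (adjusted p = 0.0441), where 1351 of 14217 genes were.

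The test of the difference between the cell types compared the LSEC change with the hepatocyte change. It called 2 members, A2m at −1.72 ± 0.29 (log2, SE, adjusted p = 3.24e-04) and Cp at −1.04 ± 0.26 (adjusted p = 0.0107), and the minus sign means a smaller change in LSECs than in hepatocytes. Thus 2 of 10 members were called lower, where 6.81% of all genes were, and 0 were called higher, where 3.51% were (0 at an unadjusted p under 0.05). The median of this difference over all genes was 0.11. The other Cp probe sets gave −0.97 (adjusted p = 0.0212) and −1.82 (adjusted p = 4.56e-05). Hepatocyte markers averaged 12.43 and 12.06 on the 3DHLK and 3DHL arrays labelled LSEC, against 11.87 and 11.82 in hepatocytes. What part hepatocyte RNA had in the changes on the LSEC arrays was not tested.

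**Figure D2:**
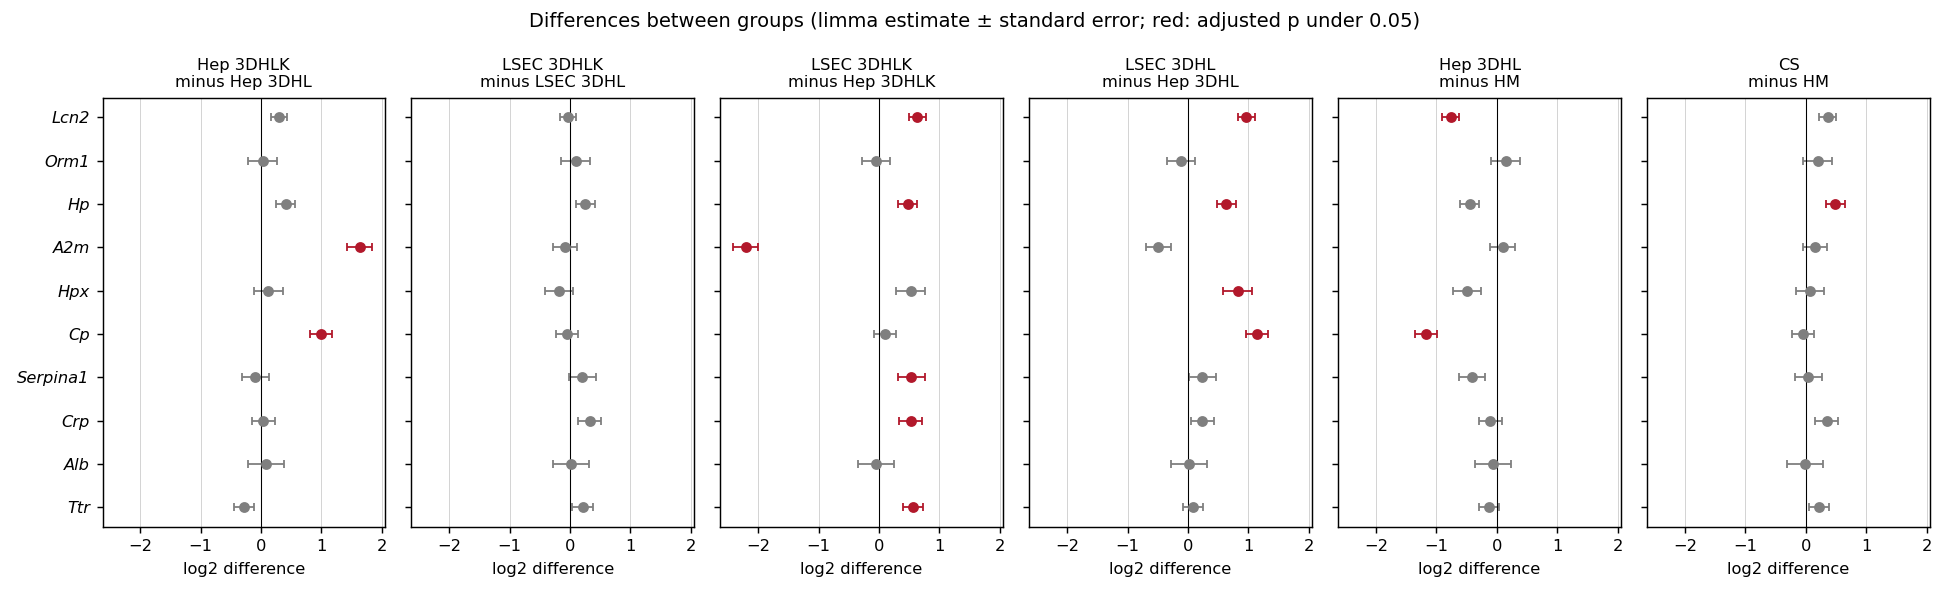
Log2 differences (horizontal axis) of the 10 genes in 6 comparisons of groups, as limma estimates with standard errors, with red points for an adjusted p under 0.05. A2m is higher by 1.64 and Cp by 0.99 in 3DHLK against 3DHL hepatocytes, no gene is red for 3DHLK against 3DHL LSECs, and A2m is the 1 gene called lower in LSECs than in hepatocytes of the 3DHLK model, with 1 probe set per gene.

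Markers of other cells were also higher on average in 3DHLK than in 3DHL hepatocytes, where 7.72% of all genes were called higher. Averaged per array, 12 markers of stellate cells and fibroblasts lay at 10.05 to 10.12 on the arrays of 3DHLK hepatocytes, against 8.03 to 8.39 in 3DHL hepatocytes, and 8 of the 12 were called higher. Among them Lum, which encodes the matrix proteoglycan lumican, averaged 8.55 against 3.61, and Dcn, which encodes decorin, averaged 9.64 against 5.84. The mean of 13 macrophage markers was 7.21 to 7.54 in 3DHLK hepatocytes, against 6.36 to 6.67 in 3DHL hepatocytes, with 6 of 13 called higher. Over 13 endothelial markers it was 6.66 to 6.80, against 6.08 to 6.19, with 5 of 13 called higher. In LSECs 1 of 12 stellate cell and fibroblast markers was called between the models, and the mean of the list was 6.69 to 6.97 in 3DHLK LSECs, against 6.43 to 6.56 in 3DHL LSECs. In CS against HM hepatocytes 8 of those 12 markers were called higher and 1 lower, with a median log2 difference of 1.02. There A2m differed by 0.15 and the selected probe set of Cp by −0.05, and neither was called. In 3DHL hepatocytes against HM 1 of the 12 was called higher and 0 lower (median 0.34), and Cp differed by −1.17. The part of other cells in the A2m and Cp differences was not tested.

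Genes upstream and beside the members were read from further lists. In 3DHLK against 3DHL hepatocytes, 7.72% of all genes were called higher and 3.76% lower. Of 19 other positive acute phase genes, 6 were called higher and 0 lower there, with a median log2 difference of 0.29. They were Timp1, an inhibitor of matrix proteases (log2 difference 1.80), Plg, which encodes plasminogen (1.17), the protease inhibitor Serpina3n (0.99), C4bpa and Serping1, which restrain complement, and C3, its central component. Of 12 genes of C/EBP factors and the glucocorticoid axis, 5 were called higher and 0 lower, with a median of 0.27. Cebpd, a C/EBP factor of the acute phase, averaged 11.34 in 3DHLK hepatocytes and 9.36 in 3DHL hepatocytes (log2 difference 1.98), and Sgk1, a kinase gene that glucocorticoids induce, averaged 12.38 and 10.97 (1.42). Fkbp5 and Tsc22d3, 2 further glucocorticoid targets, and Hsd11b1, whose enzyme regenerates active glucocorticoid, completed the 5. What part the other cells, whose markers were also higher on these arrays, had in the differences of both lists was not tested.

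The lists of the cytokine pathways in hepatocytes were read against the 7.72% of all genes called higher and 3.76% called lower. Of 21 genes of IL-1 and NF-κB signaling, 2 were called higher and 1 lower, led by Nfkbiz, which encodes the nuclear NF-κB cofactor IκBζ, at 9.95 in 3DHLK hepatocytes and 7.91 in 3DHL hepatocytes (log2 difference 2.04), and by Nfkbib at −0.46. Of 18 genes of gp130 receptors and JAK-STAT signaling, 2 were called higher, led by Il11ra1 (1.10), and 1 lower, the cytokine gene Lif (−0.78). Socs3, a feedback inhibitor that STAT3 induces, averaged 6.66 in 3DHLK hepatocytes and 6.39 in 3DHL hepatocytes and did not pass the test. Il6 averaged 3.996 and 4.11 in the same order and did not pass either. At such low values signal and background were not told apart here. Of 12 other negative acute phase genes, 2 were called higher, led by Azgp1 (1.06), and 1 lower, Ahsg, which encodes fetuin-A (−0.40). The median difference of all 14217 genes was −0.08. In LSECs, 3.58% of all genes were called higher between the models and 3.89% lower. Of the 19 other positive acute phase genes, 5 were called higher in LSECs and 0 lower, led by Il1rn, which encodes the IL-1 receptor antagonist (log2 difference 1.53), and Plg rose by 1.17 there as well. Of the C/EBP and glucocorticoid genes 3 of 12 were called higher, led by Fkbp5 (0.97), and 1 lower, Sgk1 (−0.82). Of the IL-1 and NF-κB genes 2 of 21 were called higher and 3 lower, and of the gp130 and JAK-STAT genes 1 of 18 was called higher, Il6r, and 1 lower, Lif (−0.63). Nfkbiz led its list in LSECs too, at 8.84 in 3DHLK LSECs and 7.24 in 3DHL LSECs, whereas Cebpd averaged 9.12 and 9.47 in those groups and was called lower in the test of the difference between cell types.

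**Figure D3:**
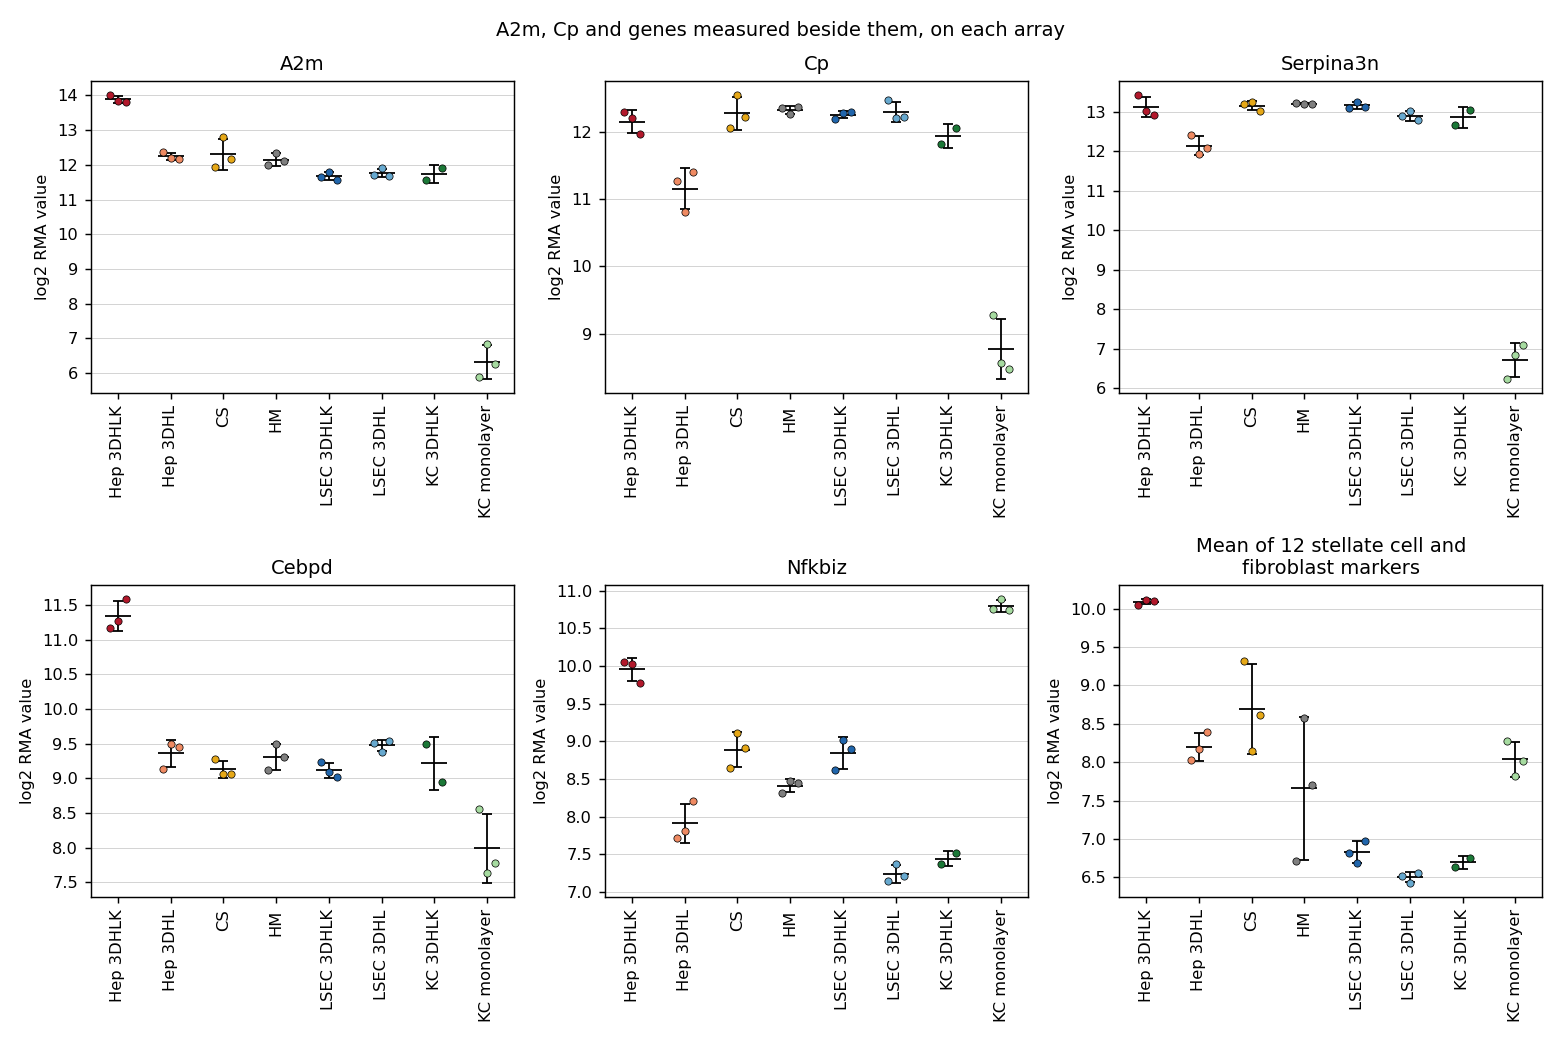
Log2 RMA values (vertical axes, 1 scale per panel) of A2m, Cp, Serpina3n, Cebpd and Nfkbiz and the per-array average of 12 stellate cell and fibroblast markers, on each array of the 8 groups. Points are arrays, wide bars are means and error bars are SD. All 6 are higher in 3DHLK than in 3DHL hepatocytes, while Serpina3n and the plotted probe set of Cp are otherwise level over the groups apart from KC monolayers.

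The positive reactants were set against the negative ones by subtracting the mean of Alb and Ttr from the mean of Lcn2, Orm1, Hp and A2m on each array. Only differences of this index between groups can be read, because levels of different probe sets are not on 1 scale. The index measured −0.19, −0.33 and −0.44 in 3DHLK hepatocytes, against −0.98, −1.01 and −1.03 in 3DHL hepatocytes, a difference of 0.69 that exceeds the SD of 0.13 and 0.03 in these groups. The mean of the positive reactants was 13.82 against 13.22 and that of the negative reactants 14.14 against 14.23. Without A2m the difference was 0.34, and with Ttr as the only negative reactant it was 0.87. In LSECs the index averaged −0.87 in the 3DHLK model and −0.81 in the 3DHL model, a difference of −0.06, which lay within their SD of 0.07 and 0.03. Against HM hepatocytes the index differed by 0.54 in 3DHLK hepatocytes, −0.15 in 3DHL hepatocytes, 0.20 in CS hepatocytes, −0.0045 in 3DHLK LSECs, 0.05 in 3DHL LSECs and 0.06 in 3DHLK KCs.

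**Figure D4:**
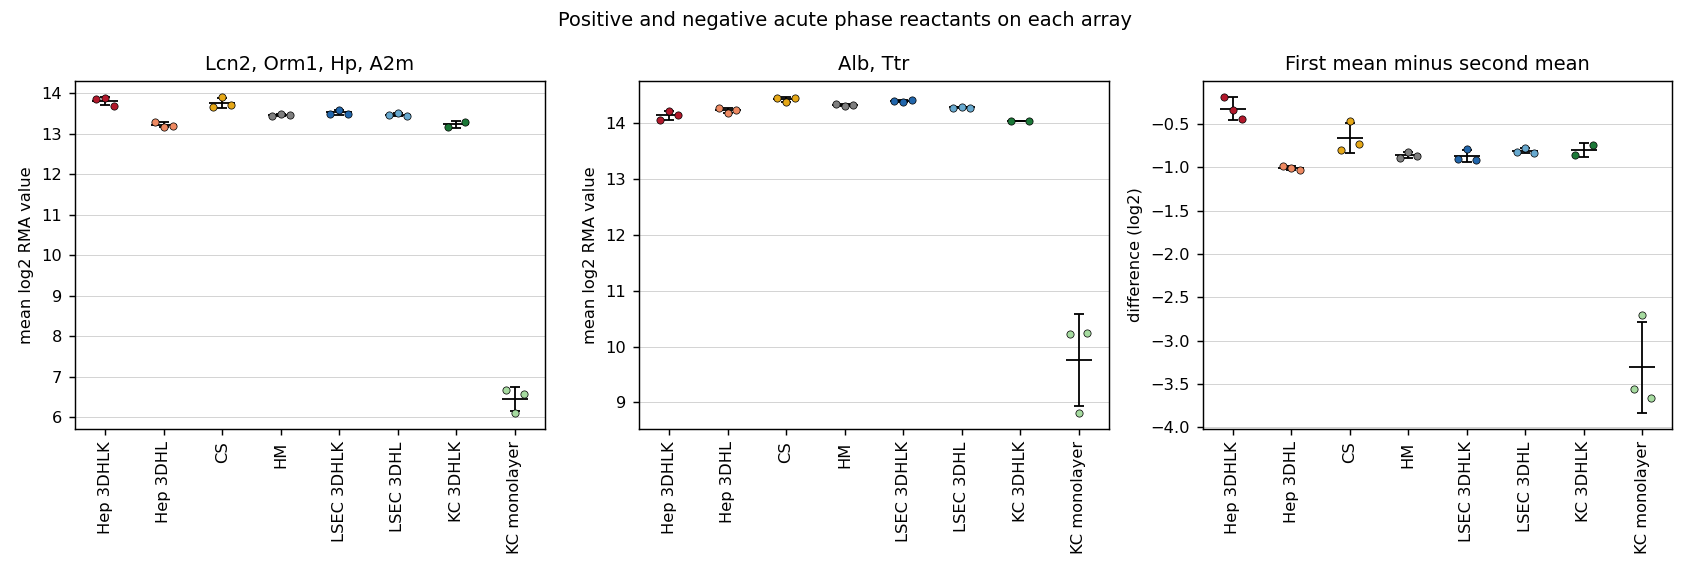
Mean log2 RMA value of the positive reactants (left), of the negative reactants (middle) and their difference (right, the index) on each array of the 8 groups. Points are arrays, wide bars are means and error bars are SD. The index is highest in 3DHLK hepatocytes (−0.32) and lowest in KC monolayers (−3.31).

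Among hepatocytes without KCs, the 3DHL model stood below HM for several members. Lcn2 measured 12.83, 12.80 and 12.68 in 3DHL hepatocytes, against 13.58, 13.46 and 13.55 in HM hepatocytes. Its arrays did not overlap, as was so for 47.3% of all genes (1.70-fold lower, log2 difference −0.76 ± 0.14, SE, adjusted p = 7.48e-04). Cp was 2.25-fold lower than the 12.34, 12.26 and 12.37 of HM hepatocytes (log2 difference −1.17 ± 0.18, SE, adjusted p = 1.48e-04), and its other probe sets fell by 1.38 and 1.39 on the log2 scale. These 2 of 10 members were called lower, where 4.70% of all genes were, and 0 were called higher, where 7.04% were (0 at an unadjusted p under 0.05). Hp (−0.45, adjusted p = 0.0710), Hpx (−0.49, adjusted p = 0.195) and Serpina1 (−0.41, adjusted p = 0.258) did not pass the test, but each was called lower in the fit without the KC monolayers. That fit called 1269 of 14217 genes lower. In 3DHLK hepatocytes Cp averaged 12.15, and this pair with HM, at 12.32, was not tested.

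In CS hepatocytes, which lie between 2 layers of collagen, Hp measured 14.26, 14.36 and 14.32, against 13.87, 13.74 and 13.86 in HM hepatocytes. It was the 1 of 10 members called higher (1.40-fold, log2 difference 0.49 ± 0.16, SE, adjusted p = 0.0314), where 11.1% of all genes were, and leaving out any 1 of the 6 arrays took the adjusted p to between 0.0523 and 0.110. Without the KC monolayers 4 members were called higher, and in the fit to these 6 arrays alone 3 were, with Lcn2 and Crp gained in both. Those fits called 2310 and 2103 of 14217 genes higher. With limma 0 members were called lower, where 10.7% of all genes were (0 at an unadjusted p under 0.05). Lcn2 measured 13.88, 14.003 and 13.81 in CS hepatocytes and 13.58, 13.46 and 13.55 in HM hepatocytes. Its arrays did not overlap, as was so for 46.3% of all genes (0.36 ± 0.14, SE, adjusted p = 0.0663). A2m was uneven in CS hepatocytes, at 11.93, 12.81 and 12.16, and overlapped with HM (0.15 ± 0.20, SE, adjusted p = 0.688). Cp depended on the probe set, since the selected one differed by −0.05 between CS and HM (adjusted p = 0.899) and another by −1.67 (adjusted p = 7.07e-07). Outside the 10 genes, 8 of 19 other positive and 8 of 12 other negative acute phase genes were called higher in CS hepatocytes, with medians of 0.39 and 0.56, and 0 of either list were called lower.

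The arrays labelled LSEC carried the members at levels close to those of hepatocytes. In the 3DHL model 4 of 10 members were called higher in LSECs, where 18.5% of all genes were, and 0 were called lower, where 21.9% were (1, A2m, at an unadjusted p under 0.05). They were Cp (log2 difference 1.14 ± 0.18, SE, adjusted p = 5.54e-05, with 1.02 and −0.29 for its other probe sets, the last at an adjusted p of 0.200), Lcn2 (0.97 ± 0.14, SE, adjusted p = 1.55e-05), Hpx (0.82 ± 0.24, SE, adjusted p = 0.00901) and Hp (0.64 ± 0.16, SE, adjusted p = 0.00370). Lcn2 measured 13.72, 13.74 and 13.75 in 3DHL LSECs, above the 12.68 to 12.83 of 3DHL hepatocytes. Hpx measured 13.69, 13.66 and 13.52 in 3DHL LSECs, against 12.84, 12.77 and 12.78 in 3DHL hepatocytes. Neither gene overlapped between the 2 cell types, as was so for 66.3% of all genes. In these arrays the mean of 16 hepatocyte markers was 12.02 to 12.08 in LSECs, against 11.77 to 11.87 in hepatocytes, and its part in these differences was not tested.

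In the 3DHLK model, A2m parted from the other members. It was 4.62-fold lower in LSECs, at 11.56 to 11.80, than in hepatocytes, at 13.80 to 14.01 (log2 difference −2.21 ± 0.20, SE, adjusted p = 1.26e-08), and it was the 1 of 10 members called lower, where 25.7% of all genes were. The 5 called higher, where 34.7% of all genes were, were Lcn2 (0.64 ± 0.14, SE, adjusted p = 5.48e-04), Ttr (0.57 ± 0.17, SE, adjusted p = 0.00620), Serpina1 (0.54 ± 0.22, SE, adjusted p = 0.0418), Crp (0.53 ± 0.19, SE, adjusted p = 0.0228) and Hp (0.48 ± 0.16, SE, adjusted p = 0.0137). Ttr measured 14.25, 14.23 and 14.31 in 3DHLK LSECs, all above the 13.44 to 13.88 of 3DHLK hepatocytes. Crp measured 13.22, 13.35 and 13.39 in 3DHLK LSECs, all above the 12.61 to 13.01 of 3DHLK hepatocytes. Arrays of these groups did not overlap in 71.9% of all genes. Serpina1, Crp and Hp are the less secure calls, with an adjusted p of up to 0.110, 0.0912 and 0.0768 when 1 array was left out. Those LSECs also held the stellate cell and fibroblast list at a mean of 6.69 to 6.97, against 10.05 to 10.12 in the hepatocytes, with 10 of its 12 genes called lower and 1 higher, and the part of those cells in the A2m difference was not tested. The Cp probe sets disagreed here, at 0.10 (adjusted p = 0.643) for the selected one and −2.11 (adjusted p = 3.92e-09) for the one that also fell in CS hepatocytes.

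All 10 members were lower in KC monolayers than in each of the other 7 groups. Lcn2 measured 13.62 and 13.55 in 3DHLK KCs, against 5.53, 5.04 and 5.80 in KC monolayers (measured log2 difference 8.13 ± 0.15, SE, adjusted p = 3.43e-20). Hpx measured 13.35 and 13.52 in 3DHLK KCs, against 5.51, 4.53 and 6.22 in KC monolayers (measured log2 difference 8.01 ± 0.26, SE). Alb measured 14.33 and 14.44 in 3DHLK KCs, against 11.18, 9.33 and 11.45 in KC monolayers (3.73 ± 0.34, SE), and the spread among the 3 monolayer arrays exceeds that of Alb in any other group. All 10 members were called higher, where 44.5% of all genes were, and 0 were called lower, where 20.8% were (0 at an unadjusted p under 0.05). The sizes cannot be ranked, because the dimmest monolayer array of Hpx, Lcn2 and Orm1 lay above only 4.24%, 8.38% and 10.97% of its probe sets, where signal and background were not told apart here. That of Crp, at 77.8%, and of Alb, at 85.3%, lay well within the measured range. The second Alb probe set was also higher (3.43, adjusted p = 9.07e-09), its 1 call in the 10 comparisons, and the other Cp probe sets differed by 2.06 and by 0.41, of which 0.41 did not pass the test (adjusted p = 0.0812). The median over all genes was 0.27. Centred on 12 housekeeping genes, that median became −0.36, and all 10 members were still called higher, where 2728 of 14217 genes were.

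Hepatocyte genes and macrophage genes moved in opposite directions over the same arrays. Of 16 hepatocyte markers, 15 were called higher in 3DHLK KCs, with a list mean of 11.28 to 11.45 there, against 6.76 to 7.31 in KC monolayers. All 13 macrophage markers were called lower, with a list mean of 6.64 to 6.97 in 3DHLK KCs, against 11.68 to 12.14 in KC monolayers. The hepatocyte markers' part in the differences of the members was not tested. Among cytokines of the acute phase, Il1b averaged 6.32 in 3DHLK KCs, against 12.78 in KC monolayers, Osm averaged 5.78 against 10.64, Tnf averaged 7.27 against 8.42, and Il6 averaged 4.45 against 5.14. The Il6 values lay near the dimmest monolayer values of Hpx (4.53) and Lcn2 (5.04), where signal and background were not told apart.

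Within the 3DHLK model, 3 members were called between KCs and hepatocytes and 3 between KCs and LSECs. Without the KC monolayers in the fit, 3 were called higher and 5 lower against hepatocytes, where 5230 and 4300 of 14217 genes were. Against LSECs that fit called 5 lower, where 2065 of all genes were. In the fit to all arrays, Lcn2 was higher than in hepatocytes by 0.52 ± 0.15 (log2, SE, adjusted p = 0.00746), the 1 of 10 called higher, where 30.6% of all genes were. A2m, at 11.55 and 11.92 in 3DHLK KCs, was lower by 2.15 on the log2 scale (a difference of −2.15 ± 0.23, SE, adjusted p = 1.60e-07), and Crp, at 12.16 and 11.97, was also lower (−0.73 ± 0.21, SE, adjusted p = 0.00684), which made 2 of 10 where 25.9% of all genes were called lower. Without the first of the 2 KC arrays the call of Lcn2 was lost (adjusted p = 0.0514), and without the second that of Crp (adjusted p = 0.0699). Cp gave −0.21 (adjusted p = 0.379) with the selected probe set and −3.10 (adjusted p = 1.32e-10) with another. Against LSECs, 3 of 10 members were called lower, where 9.73% of all genes were, namely Crp (−1.25 ± 0.21, SE, adjusted p = 2.23e-04), Hp (−0.79 ± 0.18, SE, adjusted p = 0.00316) and Ttr (−0.58 ± 0.19, SE, adjusted p = 0.0397). With limma 0 were called higher, where 5.35% were (0 at an unadjusted p under 0.05). The call of Ttr was lost without any 1 of the 5 arrays, with an adjusted p of up to 0.225. In those KC arrays 11 of 16 hepatocyte markers were called lower than in LSECs, with list means of 11.28 to 11.45 in KCs, against 12.38 to 12.46 in LSECs.

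The order of the 8 groups differed from member to member. A2m was highest in 3DHLK hepatocytes, 1.58 above CS hepatocytes, the next group, with no overlap between them, while CS, 3DHL and HM hepatocytes, next in that order, overlapped. By the selected probe set, Cp was lowest in 3DHL hepatocytes among the 7 groups other than KC monolayers, 0.78 below 3DHLK KCs, but by another it was higher there (8.67) than in CS hepatocytes (8.39), 3DHLK LSECs (8.26), 3DHL LSECs (8.38) and 3DHLK KCs (7.27). Lcn2 was highest in CS hepatocytes (13.90) and lowest in 3DHL hepatocytes (12.77), Hpx was highest in 3DHL LSECs (13.62) and lowest in 3DHL hepatocytes (12.80), and Crp was highest in 3DHLK LSECs (13.32) and lowest in 3DHLK KCs (12.07). Over these 7 groups the means spanned 2.21 for A2m, 1.25 for Crp, 1.17 for Cp, 1.13 for Lcn2, 0.94 for Hp, 0.82 for Hpx, 0.63 for Ttr, 0.55 for Serpina1, 0.39 for Orm1 and 0.19 for Alb. The narrow spans of Orm1 and Alb stand beside their position near the top of the scale.

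Likeness of pattern was described by Pearson's r over group means, among genes whose means span at least 1. Genes with placeholder symbols, such as those that open with LOC or RGD, were passed over. Over 8 groups every member followed other genes with r of 0.98 or more, because all share the low KC monolayers, and the nearest gene was Serpina3n for Cp (r = 0.984), Alb for Orm1 (r = 0.9996) and Msrb3 for A2m (r = 0.986). Over the 7 groups without KC monolayers, the nearest genes of A2m were Cdc42ep3 (r = 0.999), Abi3bp (r = 0.995) and Arhgef25 (r = 0.992). These r rest largely on 1 group, since the A2m mean of 3DHLK hepatocytes stood 1.58 above the next. The nearest gene of Cp remained Serpina3n (r = 0.953), followed by Slc25a21 (r = 0.926) and Aqp9 (r = 0.807). For Lcn2 they were Cyp4f1 (r = 0.970), Cyp2c23 (r = 0.965) and C9 (r = 0.961), of which C9 encodes a terminal complement component. Among the members themselves over the 7 groups, Lcn2 and Hpx ran closest (r = 0.920), and the highest r of A2m with any of the other 9 was 0.551, with Alb. These correlations rest on 7 points that share libraries by group, and they describe these cultures only.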

How the data were processed

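RNA was hybridised to 23 Affymetrix rat arrays. According to the methods, the authors checked array quality, corrected the background, quantile normalized and summarized the arrays with RMA, and the deposited table holds log2 values per probe set. The sources used here do not give the version of RMA. Among 31099 probe sets, the annotation used here gives 20826 a single gene, 436 more than 1 and 9780 none, besides 57 controls. Only those with a single gene were tested, and of several for a gene the brightest on average was kept, which left 14217 genes. Detection calls were not used here, so signal over background is unknown, and precision is limited by how few arrays each group has.

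Arrays were assigned to 8 groups from the labels. Comparisons used limma (version 3.58.1, R 4.3.3), in 1 model of group means over all arrays that share 1 estimate of the spread, with eBayes, two-sided, and Benjamini-Hochberg adjustment over all genes within each of 10 comparisons at a threshold of 0.05. The code was tested on simulated data. Plots used Python 3.11.15 and matplotlib 3.10.9. The members and lists were chosen with earlier results of these data known. Named are all members, their 3 nearest genes by correlation of group means, and in each list the called genes with the largest rise and fall, and other genes of a list were chosen after their values were seen. Placeholder symbols were passed over among the nearest genes. Some genes of the lists of acute phase genes and their pathways are not analysed here. Replicate numbers were not used to pair the arrays. In no comparison of 3 pairs did the deviations of same-numbered arrays correlate above 0.1 in every pair. For 3DHLK against 3DHL LSECs they correlated at 0.066 to 0.114. The 2 pairs of 3DHLK KCs against KC monolayers correlated at 0.24 and 0.22. The main fit used no block. Alternatives were a fit to the arrays compared, a replicate block, the mean of all probe sets, a filter at the 30th percentile, cyclic loess, centring on housekeeping genes, a trended and robust eBayes, a fit without KC monolayers, the average of both 3DHLK KC arrays added as 1 more array, and leaving out each array or index gene. Promoter windows came from RefSeq (GRCr8), matched by symbol.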

Additional observations from a re-analysis of the deposited data

Results flagged for a closer look

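The change between the 3DHLK and 3DHL models differed between LSECs and hepatocytes for 2 of the 10 genes by the interaction test of limma. The LSEC change minus the hepatocyte change was −1.72 for A2m (log2, adjusted p = 3.24e-04), with changes of −0.08 in LSECs and 1.64 in hepatocytes. It was −1.04 for Cp (adjusted p = 0.0107), with changes of −0.05 in LSECs and 0.99 in hepatocytes.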

How the results depend on the processing

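Over the 59 log2 differences followed, 435 of 487 values under other settings and 327 of 353 with 1 array left out kept their direction and their side of the threshold. The selected probe set decides Cp in some comparisons. In 3DHLK against 3DHL hepatocytes, 3DHL hepatocytes against HM and the difference of KC addition between cell types, every Cp probe set moved the same way. In 3DHLK LSECs against 3DHLK hepatocytes, averaging all Cp probe sets gave −0.65 (adjusted p = 0.00124) in place of 0.10, which made 2 members lower, and for CS against HM it made 1 member lower. Averaging also called Cp lower in KCs against hepatocytes (−1.24, limma adjusted p = 6.78e-06) and in KCs against LSECs (−0.59, limma adjusted p = 0.0213). Cp in CS against HM lay between −0.19 and 0.058 when 1 array was left out, positive without CS replicate 1.

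The KC monolayers decide how many members pass. Without them, 4 members were called higher and 1 lower in 3DHLK against 3DHL hepatocytes, 4 higher in CS against HM, 5 lower in 3DHL hepatocytes against HM, 1 lower (A2m) in LSECs against hepatocytes of the 3DHL model, 3 higher and 5 lower in KCs against hepatocytes, 5 lower in KCs against LSECs and 2 higher in the difference of KC addition between cell types. More of the 14217 genes were called as well. In 3DHLK against 3DHL hepatocytes 1482 were higher and 1553 lower, where the fit to all arrays called 1097 and 534. In 3DHL hepatocytes against HM 1984 were higher and 1269 lower, where it called 1001 and 668. In CS against HM 2310 were higher, and in LSECs against hepatocytes of the 3DHL model 3991 were lower. KCs against hepatocytes gave 5230 higher and 4300 lower, KCs against LSECs 2065 lower, and the difference of KC addition 1632 higher. A fit to the arrays compared called 1 member higher in 3DHLK against 3DHL LSECs, 3 higher in CS against HM, 5 lower in 3DHL hepatocytes against HM, 1 lower in LSECs against hepatocytes of the 3DHL model, 2 higher in KCs against hepatocytes and 1 higher in the difference of KC addition. Of all 14217 genes it called, in the same order, 1351 higher, 2103 higher, 1792 lower, 4225 lower, 4227 higher and 1497 higher.

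Cyclic loess called 4 members higher in 3DHLK against 3DHL hepatocytes, 2 higher in CS against HM and 4 lower in KCs against hepatocytes. Of all 14217 genes it called 1363 higher, 1732 higher and 3847 lower in the same order. The trended and robust fit called 2 members higher in CS against HM, where 1587 of all genes were. Housekeeping centring called 0 members higher in KCs against hepatocytes (Lcn2, adjusted p = 0.0575, limma), where 2354 of all genes were. Housekeeping centring also lowered the share of higher genes among all called to 56.1% from 67.3% for 3DHLK against 3DHL hepatocytes, to 32.8% from 47.9% for the same models in LSECs, to 34.4% from 50.8% for CS against HM, to 29.3% from 68.2% for KCs of the 3DHLK model against monolayers (51.2% with cyclic loess), to 32.8% from 54.2% for KCs against hepatocytes and to 12.6% from 35.5% for KCs against LSECs (46.1% with cyclic loess). For 3DHL hepatocytes against HM, cyclic loess gave 44.4% and the deposited values 60.0%. The all-gene medians under housekeeping centring were −0.13, −0.16 and −0.12 for KC addition in hepatocytes, KCs against LSECs and KCs against hepatocytes.

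Leaving out 1 array, the members called higher numbered 0 in every case for CS against HM, 2 to 4 for 3DHLK LSECs against 3DHLK hepatocytes and 0 to 1 for KCs against hepatocytes, where 1 to 2 were lower. Replicate numbers were not used to pair the arrays in the main fit. With the replicate block, 1 member, A2m, was called lower in LSECs against hepatocytes of the 3DHL model (−0.49, adjusted p = 0.0295), Ttr lost its call in KCs against LSECs (adjusted p = 0.0582), and no other call of a member changed.

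The index difference between 3DHLK and 3DHL hepatocytes became 0.88 without Orm1, 0.34 without A2m, 0.87 without Alb and 0.51 without Ttr. That of LSECs became −0.15 without Alb and 0.036 without Ttr, and that of KCs of the 3DHLK model against monolayers 1.97 without Alb and 3.05 without Ttr, in place of 2.51. Where no other cause is named, the cause of these changes was not tested. Signals near the top of the scale limit what Alb and Orm1 can show.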
